A study of Sus scrofa with 12 samples.

Results

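The cytosolic ribosomal protein genes of the pig were followed in 2 kinds of chromatin map of longissimus muscle, one of loops between active regulatory regions and one of RNAs lying on chromatin. Members were the protein-coding genes of the Sscrofa11.1 RefSeq table whose symbol is RPL or RPS followed by a digit, together with RPLP0, RPLP1, RPLP2 and RPSA. The 10 genes named RPS6K were left out, since they encode kinases. The rule gave 85 loci of 19550 protein-coding genes on placed chromosomes. These loci carried 84 symbols, because RPL18 was listed on both chromosome 6 and chromosome 1. By name, 46 belonged to the large subunit and 31 to the small subunit, and 8 were paralogs or look-alikes. One look-alike, RPS19BP1, encodes a protein that binds RPS19 and is not a ribosomal protein itself. On the X chromosome lay 4 members, RPS4X, RPL36A, RPL39 and RPL10.

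Muscle came from male piglets 2 weeks old of Large White (LW), a commercial lean breed, and Meishan (MS), a local Chinese breed, with no treatment in either. BL-HiChIP joins DNA ends that touch in the nucleus and keeps those carrying H3K27ac, the histone mark of active promoters and enhancers. GRID-seq joins each RNA to the DNA next to it. Each assay had 2 libraries a breed. The methods mention a pair of male piglets, without saying whether in all or per breed, and neither they nor the labels say which library came from which animal. The p-values below therefore measure only the spread between libraries, which may be technical. The loop lists held between 33353 and 57028 loops and the RNA lists between 519 and 681 RNAs, with 7172517 to 9943666 reads. In both breeds the loop library of replicate 1 was longer than that of replicate 2. All 12 skeletal muscle markers had a loop in every library and 7 of the 12 were listed as chromatin RNAs. Of 5 adipocyte markers, 1 or 2 had a loop and 0 were listed. Of 4 endothelial markers, 3 or 4 had a loop, with summed loop scores of 50.1 and 69.8 in LW against 83.7 and 158 in MS. Of 4 fibroblast markers, 2 to 4 had a loop, with sums of 80.1 and 94.4 against 63.7 and 49.6, and 1 or 2 were listed as RNAs. Of 4 leukocyte markers, 1 had a loop, with sums of 30.2 and 26.4 against 44.9 and 45.4. The part of these other cell types in the results was not tested.

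Ribosomal proteins are made in every cell, in amounts matched to one another, and are assembled with ribosomal RNA into the large and small subunits. The genes are short, very active and spread over the genome rather than clustered. Many of them hold small nucleolar RNA genes in their introns. In muscle, ribosome content limits how much protein the fibre can make, and RPL3L is a muscle-specific relative of RPL3. The members lay on 17 chromosomes, with at most 13 on one of them, chromosome 1. Their median length was 3905 bp, against 20650.5 bp over all protein-coding genes.

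The first comparison asked how often a ribosomal protein gene was tied to another region by a loop. A gene was counted when one 5-kb anchor of a loop came within 1 kb of the gene's start or end. In LW, 74.1% and 62.4% of the 85 members had such a loop in replicates 1 and 2. In MS the shares were 65.9% and 58.8%. Over all protein-coding genes they were 52.9%, 46.6%, 48.4% and 42.0%, in the same order. The members thus stood above the background in each of the 4 libraries, and the LW and MS ranges overlapped. Counted over any library, 75 of 85 members (88.2%) had a loop, against 62.6% of protein-coding genes. A loop in every library was found for 35 members (41.2%), against 31.7%.

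The shares of other housekeeping families overlapped those of the members. Among 74 mitochondrial ribosomal protein genes, which serve the separate ribosome of the mitochondrion, the shares were 64.9% in 3 libraries and 50.0% in MS replicate 2. Among 40 proteasome subunit genes, which build the protein-degrading complex, they ran from 52.5% to 70.0%. Of these families the small subunit varied most between libraries. Its shares were 80.6% and 58.1% in LW against 64.5% and 51.6% in MS, whereas the large subunit stayed between 60.9% and 69.6%. The members had 2.36, 1.62, 2.18 and 1.36 loops on average in LW replicates 1 and 2 and MS replicates 1 and 2. Protein-coding genes had 1.78, 1.54, 1.53 and 1.25. The ratio of members to background, averaged over the libraries of a breed, was 1.19 in LW and 1.26 in MS. In both breeds it was higher in replicate 1 than in replicate 2. The members touched 2.15 bins of 5 kb on average, against 2.61, and counted per bin the ratio was 1.45 in LW and 1.53 in MS.

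**Figure D1:**
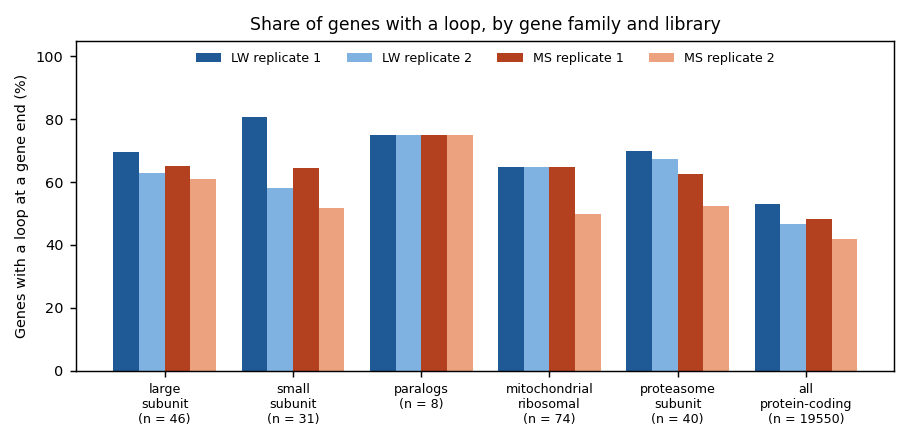
Share of genes (%) with a loop anchor within 1 kb of a gene end, as bars from 0 for each gene family, with 1 bar for each library and the number of genes under each name. The cytosolic large and small subunit bars lie above those of all protein-coding genes in the same library, and the small subunit bars spread from 51.6% to 80.6%.

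No loop was found in any library for 10 members, among them RPL18 on chromosome 1, RPL10L, RPL36, RPS23, RPL7, RPL13, RPS3A, RPL22L1 and RPL37A. The remaining 75 differed widely in loop score, the sum over a gene's loops of −log10 of the value deposited for each loop. RPL3, a core protein near the peptidyl transferase centre, lay at chr5:8922697-8929768 and had the highest mean. Its loop scores were 118.7 and 88.4 in LW against 79.9 and 59.5 in MS, from 9, 13, 11 and 8 loops. RPL27A, a large subunit protein at chr9:708531-712410, scored 82.6 and 70.3 in LW against 61.9 and 42.3 in MS. In both genes each LW library lay above each MS library.

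RPL10, which joins the large subunit at a late step, lay at chrX:124927249-124929791. Its loop scores of 53.1 and 49.6 in LW against 60.3 and 35.0 in MS overlapped between breeds. RPL3L, at chr3:40004907-40016702, scored 58.5 and 21.6 in LW against 35.9 and 14.4 in MS. RPS10, a small subunit protein, scored 64.6, 17.3, 38.1 and 7.59 in the same order. In RPL3L and RPS10 the libraries of replicate 1 were high in both breeds and those of replicate 2 low.

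Behind these came members with steadier scores, of which 4 are given here, chosen after their values were seen. RPL24, a large subunit protein, had loop scores of 29.0 and 27.3 in LW against 29.4 and 20.8 in MS. RPS16, of the small subunit, had 30.8 and 21.8 against 26.6 and 23.7, and RPL23 had 20.5 and 23.1 against 28.1 and 19.4. RPL7L1, a relative of RPL7, had 16.9 and 29.6 against 25.1 and 28.8. In all of them the breeds overlapped. At the other end, 11 members had a loop in 1 library alone, 16 had one in 2 libraries and 13 in 3.

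The order of replicate 1 over replicate 2 recurred among the members, and the next pair was also chosen after the values were seen. RPL13A had loop scores of 21.6 and 0 in LW against 28.2 and 0 in MS, and RPS27 had 41.8, 5.32, 36.5 and 3.08. Replicate 1 was above replicate 2 in both breeds for 29 of the 75 members with a loop (38.7%) and below it in both for 9 (12%). Over protein-coding genes with a loop these shares were 31.7% and 22.8%. The stalk proteins, which recruit the elongation factors, were uneven. RPLP2 had loop scores of 21.7 and 28.5 in LW against 27.5 and 17.8 in MS. RPLP1 had a loop in LW replicate 1 alone (loop score 3.34), as did RPLP0 (2.25), and RPSA, a small subunit protein also known as a laminin receptor, had one in MS replicate 2 alone (2.54).

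**Figure D2:**
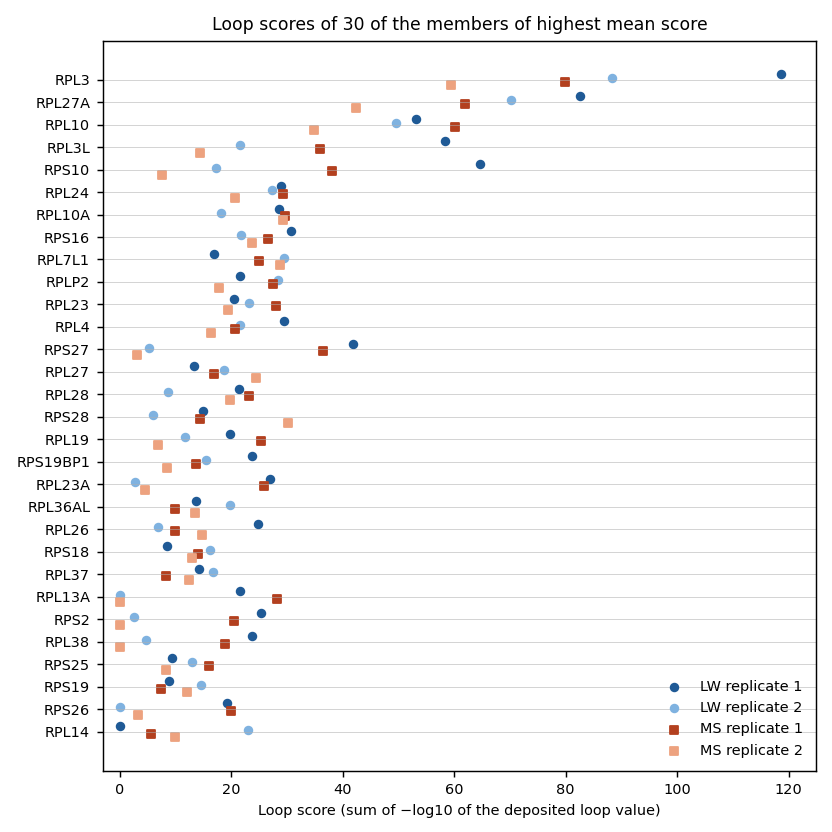
Loop score of 30 of the members with the highest means, with circles for the 2 LW libraries and squares for the 2 MS libraries. RPL3 reaches 118.7 in LW replicate 1, and for RPL13A and RPS27 the libraries of replicate 1 lie to the right in both breeds.

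Together the members had 405 distinct loops, with a median span of 60 kb, the same as that of the 51300 loops at protein-coding gene ends. Of the 405, 258 (63.7%) were called in 1 library and 21 (5.19%) in all 4. Over the protein-coding loops the shares were 65.4% and 4.73%. Among the loops seen in every library, that of RPL4, a large subunit protein, had the largest summed value. It joined chr1:164380001-164385000, at an end of MAP2K1, to chr1:164475001-164480000 over 95 kb, with −log10 values of 25.6 and 12.3 in LW against 17 and 14.3 in MS. The anchor at RPL4 also touched an end of SNAPC5, so the loop cannot be given to either gene alone.

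RPL3 had 25 distinct loops and 2 of them were in all 4 libraries. One ran 150 kb to CBX7, which encodes a Polycomb protein, with −log10 values of 21.9 and 11.9 in LW against 14.6 and 8.04 in MS. The other ran 160 kb to MIEF1, with values of 12.4, 10.2, 4.02 and 7.36. RPL24 was joined over 10 kb to ZBTB11 and over 25 kb to CEP97 in all 4 libraries.

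In 250 of 412 pairs of a member and a loop (60.7%), the far anchor came within 1 kb of an end of another protein-coding gene. Over all protein-coding genes this held for 36.8% of 77286 such pairs. Loops between members were rare. RPS29 was joined to the anchor of RPL36AL, which also touched ends of LRR1 and MGAT2, over 20 kb in LW replicate 1 and MS replicate 2. A 5-kb loop from the anchor of RPL3L to a bin of RPS2 was called in 3 libraries. RPS2 had an end on both anchors, so this loop cannot be given to the pair of members. Between breeds, 15 loops (3.70%) were called in both LW libraries and neither MS library, and 8 (1.98%) in both MS libraries and neither LW library. Over the protein-coding loops these shares were 4.2% and 2.53%, so the members' shares were near the background. RPL3 held 3 of the 15 and 1 of the 8. Its strongest in LW, over 55 kb, had −log10 values of 12.7 and 12, and MS replicate 2 had a loop to the same far anchor from a bin nearby (9.89). The loop in MS, over 75 kb, had 4.33 and 14.

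The breeds were then compared gene by gene on quantile-normalized log2(loop score + 1) with limma, using the thresholds of the study, a log2 fold change beyond 1.5 and an unadjusted p under 0.05. No member (0 of 75 tested) passed, and 0 had an unadjusted p under 0.05. Over protein-coding genes 2.63% were past the threshold with LW higher and 2.38% with MS higher. No gene of any kind (0 of 15431) had a Benjamini-Hochberg adjusted p under 0.05 with limma, while 822 had an unadjusted p under 0.05, and the smallest adjusted p was 0.804. DESeq2 on the rounded scores also called 0 members at the threshold in either direction. It called 0.59% of protein-coding genes with LW higher and 0.80% with MS higher, so a count of 0 members is near the background. The smallest p among members was that of RPL7A, a large subunit protein at chr1:272961421-272965636. Its loop scores were 8.33 and 5.67 in LW against 3.42 and 0 in MS. This gave a log2 fold change of 1.40 (SE 0.87), with a limma adjusted p of 0.992. With MS replicate 1 left out, RPL7A passed the threshold (log2 fold change 2.00), and 3 members of 73 (4.11%) passed with MS higher, against 3.72% of protein-coding genes in the same setting. Leaving out LW replicate 1, LW replicate 2 or MS replicate 2 gave median log2 fold changes of −0.29, 0.06 and −0.40 over members. Over protein-coding genes these were 0.07, 0.07 and 0.03.

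The median log2 fold change (LW over MS) was −0.15 over the 75 members and 0.01 over protein-coding genes, with 33 members above 0 and 42 (56.0%) below, against 48.9% of protein-coding genes below. Without normalization the medians were 0.18 and 0.37, so that the sign over members turned and no direction can be given for the family. All libraries of one breed lay above those of the other for 10 members with LW higher (13.3%) and for 1 with MS higher (1.33%), on the unscaled loop score. Over protein-coding genes these shares were 21.1% and 6.79%. The member higher in MS was RPL10A, with loop scores of 28.6 and 18.2 in LW against 29.6 and 29.2 in MS, a gap smaller than that between the LW libraries. Among those higher in LW were RPS27L, a relative of RPS27 known from the p53 response, with 16.0 and 12.3 in LW against 7.50 and 2.72 in MS, and RPS19BP1, with 23.7 and 15.6 against 13.8 and 8.49. RPL29 had 13.3 and 7.51 against 3.52 and 5.31, and RPS21 had 2.11 and 2.12 against 0 in both MS libraries. None of these had an unadjusted p under 0.05, and with a window of 5 kb the log2 fold changes of RPL29 and RPS21 turned below 0.

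GRID-seq was used to ask which ribosomal protein transcripts stayed on chromatin. A listed RNA overlapped 18 members in at least 1 library. For 12 the list named the gene by symbol, for 2 by Ensembl identifier, and for 4 (RPL12, RPL13, RPL13A and RPS19) only the position matched. Those listed in all 4 libraries were 9, among them RPL3, RPL4, RPL5, RPL23, RPL27A, RPS2 and, by position, RPL13. RPL32, RPL23A, RPS19 and RPL13A were listed in 3 libraries, RPLP0 in both MS libraries, RPS12 in LW replicate 1, RPS9 in MS replicate 1, and RPL21 and RPL12 in MS replicate 2. The RNA over RPL13A spanned 38796 bp and that over RPL12 19169 bp, so that both covered neighbouring genes. The RNA listed as RPL23 spanned 10226 bp against 5574 bp for the gene, and that listed as RPL4 9543 bp against 5497 bp. Both reached past their genes, and whether their reads include those of neighbours was not tested. No RNA of any gene on the X chromosome was listed (0), the 4 X-linked members included.

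Several RNAs missing from some lists had few reads where they were listed. Of those in 1 library, RPS9 had 512 reads, RPS12 had 596 and RPL21 had 760, where the smallest number in a list was 432 to 455. RPLP0 had 438 and 566 reads in MS. A missing RNA was therefore not shown to be absent. Others were well above the smallest number. The RNA over RPL12 had 2162 reads in its only library, and that over RPL13A had 5656 and 6663 in LW and 5087 in MS replicate 2 but no entry in MS replicate 1. RPL32 had 1340 and 1436 reads in LW and 1226 in MS replicate 1 but no entry in MS replicate 2.

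The reads of the 9 RNAs present throughout were compared with edgeR over the 308 RNAs that all 4 lists shared. In bulk tissue, fewer cells of a type and less RNA per cell cannot be told apart. RPL23, a large subunit protein that also restrains MDM2, had the most reads, 9121 and 10596 in LW against 4619 and 5507 in MS. In CPM, the reads scaled to the total of the 308 RNAs times edgeR's TMM factor, this was 1326.5 and 1393.5 in LW against 783 and 785 in MS, with no overlap between breeds. The log2 fold change came to 0.79 (SE 0.03, edgeR adjusted p = 2.89e-05). RPL3 had 610 and 614 CPM in LW against 466 and 446 in MS, a log2 fold change of 0.43 (SE 0.03, edgeR adjusted p = 0.000233). A smaller change in the same direction was that of RPS2 (log2 fold change 0.25).

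RPL13, a large subunit protein, went the other way, with 980 and 1049 reads in LW against 1088 and 1298 in MS. Its 143 and 138 CPM in LW lay below 184 and 185 in MS, and the log2 fold change was −0.40 (SE 0.03, edgeR adjusted p = 0.000323). RPL4 (−0.19) and RPL27A (−0.14) were also higher in MS. RPL5, which carries 5S ribosomal RNA into the large subunit, had 275 and 263 CPM in LW against 281 and 273 in MS, and did not pass (log2 fold change −0.04, edgeR adjusted p = 0.287). Over all 9 RNAs, 4 members were higher in LW and 4 in MS. Among all 308 RNAs, 44.2% were higher in LW and 42.5% in MS at the same threshold, so the members' share was near the background. Without scaling factors and with all listed reads as the library total, RPL4 and RPL27A no longer passed. In that setting 83 of the 308 RNAs were higher in LW and 84 in MS, in place of 136 and 131.

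**Figure D3:**
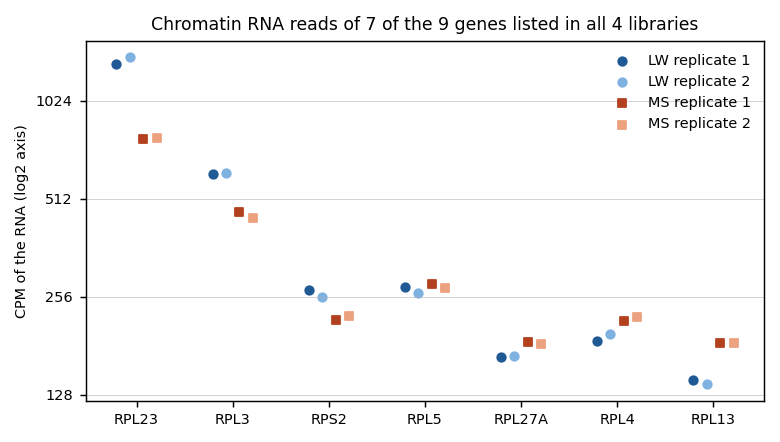
CPM (reads scaled to the total of the 308 shared RNAs times the TMM factor) of 7 of the 9 ribosomal protein RNAs listed in every library, on a log2 axis, with circles for the 2 LW libraries and squares for the 2 MS libraries. RPL23 stands at 1326.5 and 1393.5 in LW against 783 and 785 in MS, while the RPL13 squares (184 and 185) lie above its circles (143 and 138).

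The signal of these RNAs lay at their own loci. In each library the median ribosomal protein RNA had between 99.5% and 99.9% of its signal within 10 kb of its listed span. For some RNAs this span covers neighbouring genes. Over all listed RNAs the medians were 83.1% to 92.7%. The lowest value among members was 85.7%, in LW replicate 2. No ribosomal protein RNA (0 of 12, 13, 14 and 15 listed in LW replicates 1 and 2 and MS replicates 1 and 2) had a bin on another chromosome. Of all listed RNAs, 12.3% to 13.4% had one.

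The deposited signal corrects each RNA-DNA contact for background, and across the members it fell as reads rose. On log2 scales the correlation between an RNA's reads and its summed signal came to −0.86 and −0.83 in LW against −0.75 and −0.76 in MS, over 12 to 15 RNAs that share their library. Over all listed RNAs it lay between −0.16 and 0.08. RPL23, with the most reads in LW, had summed signals of 3527 and 4175 in LW against 8640 and 9552 in MS, the reverse of its reads. RPS9 in MS replicate 1, with 512 reads, had the highest summed signal, 147304. Signal and reads were therefore read separately.

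**Figure D4:**
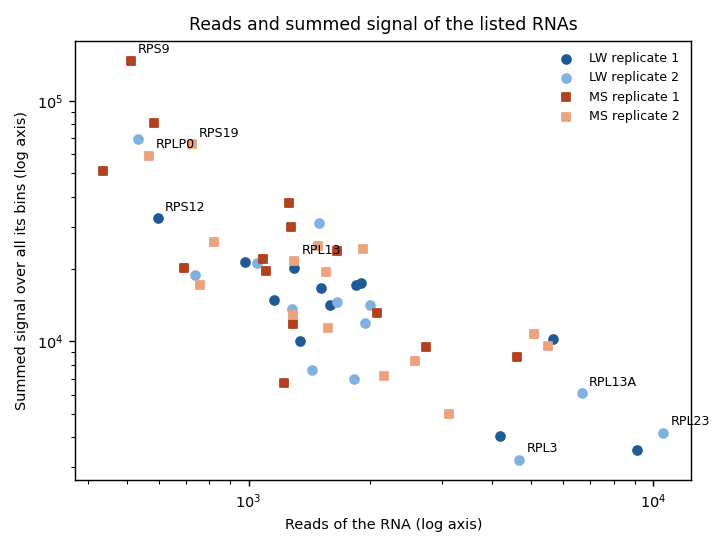
Reads (log axis) and summed signal over all bins (log axis) of each listed ribosomal protein RNA, with 1 point for each RNA and library. The points fall from RPS9 at 512 reads to RPL23 at 10596 reads in LW replicate 2.

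Signal was then summed at each member over all RNAs, its own and others, on 1-kb bins within 5 kb of either gene end. In LW, 56.5% and 63.5% of members had some signal, and in MS 74.1% and 81.2%. Over protein-coding genes the shares were 48.5% and 56.6% in LW against 58.4% and 65.7% in MS. Members and background were thus both higher in MS, members lay above the background in each library, and within each breed the library with the longer RNA list had the higher share. Among proteasome genes the shares were 50.0% and 65.0% in LW against 80.0% and 92.5% in MS. No signal was found in any library for 6 members, namely RPL10L, RPL18 on chromosome 1, RPL8 and the X-linked RPS4X, RPL36A and RPL39.

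The highest sums came mostly from a gene's own RNA, where it was listed. RPS19, whose mutation causes Diamond-Blackfan anaemia, had signals of 21.2 and 61420 in LW against 72280 and 56438 in MS, the low library being the one without the overlapping RNA. RPS9 had 2.35 and 0 in LW against 138680 and 132.2 in MS. RPLP0 had 0 and 26.0 in LW against 47438 and 54332 in MS. In RPS9 and RPLP0 the high libraries were those where the own RNA had entered the list. In RPS19 they were those that listed the RNA matched to it by position alone.

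At other members the signal came from neighbours. RPS19BP1 had 44932 and 45161 in LW against 20852 and 22238 in MS. The RNA of ATF4, a transcription factor of the amino acid stress response, supplied 44924 and 43960 of it in LW against 20806 and 22193 in MS. RPL3L had 47540 and 40950 in LW against 24843 and 19727 in MS. Its own RNA was not listed, and the RNAs of MSRB1, HS3ST6 and RPS2 supplied nearly all of this. In both genes each LW library lay above each MS library, and neither passed the limma test (adjusted p = 0.654 for both).

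On quantile-normalized log2(signal + 1), 9 of 79 members tested passed the thresholds of the study for RNA, a log2 fold change beyond 2 and an unadjusted p under 0.05. The 3 higher in LW (3.80%) compare with 7.08% of protein-coding genes, and the 6 higher in MS (7.59%) with 8.9%. With adjustment by Benjamini-Hochberg, 0 of 23749 genes passed in limma, although 3723 had an unadjusted p under 0.05. DESeq2 was not run on this signal, which is not a count. The members' adjusted p ran from 0.133 upward. The median log2 fold change was −0.63 over members and −0.19 over protein-coding genes, and 52 of 79 members (65.8%) were below 0, against 53.7%. With MS replicate 1 left out, 1 of 75 members was past the threshold with LW higher and 13 (17.3%) with MS higher, against 6.03% and 14% of protein-coding genes. Leaving out MS replicate 2 gave 11 of 70 (15.7%) with MS higher, against 14.5%, and leaving out LW replicate 2 gave 10 of 77 (13.0%), against 9.42%.

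Among the 3 members higher in LW, RPS14, the small subunit protein lost in the 5q- syndrome, had signals of 494.1 and 360.9 in LW against 21.9 and 23.9 in MS. This gave a log2 fold change of 3.70 (SE 1.07, limma adjusted p = 0.247), and the RNA of PPARGC1B supplied 479.5 and 291.4 of it in LW and none in MS. RPL29 had 48.2 and 51.3 in LW against 0.651 and 0.504 in MS, a log2 fold change of 4.81 (SE 1.07, limma adjusted p = 0.198). Different RNAs gave it in the LW libraries, that of DAG1 (47.4) in replicate 1 and those of MBNL1 (29.3) and U4 (21.9) in replicate 2. RPL15 had 1.34 and 28.2 in LW and was at 0 in both MS libraries (limma adjusted p = 0.230).

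Among the 6 higher in MS, RPLP0 had the smallest p (limma adjusted p = 0.133). Its log2 fold change was −13.53 with its own RNA and −2.23, not past the threshold, without. RPL36 had 8.51 and 0 in LW against 86.8 and 246.1 in MS, a log2 fold change of −5.98 (SE 1.66, limma adjusted p = 0.236). RPS7, RPL31, RPL22 and RPL10 were at 0 in both LW libraries. Their signals in MS replicates 1 and 2 were 14.4 and 16.2 for RPS7, 30.3 and 16.2 for RPL31, 30.2 and 12.8 for RPL22 and 6.68 and 11.2 for RPL10. All signal at these 4 genes came from RNAs with bins on 10 or more other chromosomes, called widespread here.

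RPL32 and RPL6 also separated the breeds with LW higher, without passing. RPL32 had 8818 and 6927 in LW against 6081 and 20.2 in MS, the last being the library without its own RNA. RPL6 had 118.8 and 18.1 in LW against 15.2 and 0 in MS. All libraries of one breed lay above the other for 10 members with LW higher (12.7%) and 21 with MS higher (26.6%), where protein-coding genes gave 16.4% and 21.6%. RPLP1 was among the 21, with 71.0 and 67.8 in LW against 71.9 and 436.2 in MS, as was RPLP2, with 36.6 and 175.7 in LW against 244.8 and 322.7 in MS. RPSA had signal only in MS replicate 2 (9.57).

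Widespread RNAs reached many members while adding little to the sums. They were found on 36 and 43 members in LW against 60 and 66 in MS, and supplied between 0.451% and 0.852% of all signal at members. For 18 and 21 members in LW against 34 and 37 in MS they were the only RNAs present.

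The RNA of TTN, which encodes titin, the giant spring of the sarcomere, reached 12 and 5 members in LW against 20 and 21 in MS. It reached 13.7% and 13.6% of protein-coding genes in LW and 24.7% and 21.0% in MS. An RNA known by its identifier ENSSSCG00000048037 reached the most, 11 and 25 members in LW against 28 and 22 in MS, and the breeds overlapped. Over protein-coding genes they did not, with 11.4% and 20.2% in LW against 25.1% and 28.7% in MS. ENSSSCG00000048856 reached 5 and 3 members in LW against 13 and 23 in MS, and its shares of protein-coding genes were in the same order, 4.13% and 5.82% against 8.43% and 14%. ENSSSCG00000044834 reached 2 and 4 members in LW against 11 and 10 in MS, whereas its shares of protein-coding genes, 10.5% and 8.88% in LW against 8.65% and 7.34% in MS, were in the opposite order.

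**Figure D5:**
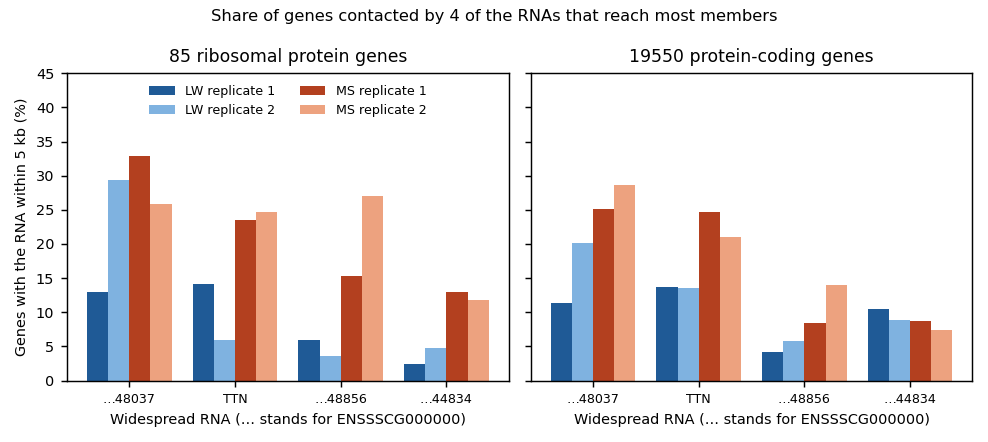
Share of genes (%) with a given widespread RNA within 5 kb, for 4 of the RNAs that reach most members, as bars from 0 for each library, at the 85 ribosomal protein genes (left) and at 19550 protein-coding genes (right). For TTN the MS bars stand at 23.5% and 24.7% of members and the LW bars at 14.1% and 5.88%, and over protein-coding genes the MS bars are also the higher ones.

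When widespread RNAs were left out, the shares of members with signal were 37.1% in LW and 35.9% in MS on average. Counted over any library, 48 of 85 members then had signal, and 6653 of 19550 protein-coding genes. The median log2 fold change was then −0.19 over members and 0.63 over protein-coding genes, so that the sign of the latter turned. Members tested fell from 79 to 48. Of these, 1 passed the threshold with LW higher (2.08%) and 2 with MS higher (4.17%), against 9.30% and 6.78% of protein-coding genes.

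The other genes of the ribosome pathway were read in the same tests. Of 45 listed genes for ribosome assembly, ubiquitin-fused ribosomal proteins, translation factors and regulators, 44 were in the table and 40 were tested for loops. GNL3, a nucleolar GTPase, passed with MS higher (log2 fold change −2.23), and 0 passed with LW higher. Over protein-coding genes 2.38% passed with MS higher and 2.63% with LW higher, so 1 of 40 is near the background. In RNA signal, 3 of 42 passed with LW higher (LTV1, MTOR and POLR1B) and 5 with MS higher (NPM1, DKC1, WDR12, RIOK2 and EIF3E), which is near the 7.08% and 8.9% of protein-coding genes given above. Of these genes, 5 were listed as RNAs in all 4 libraries. At an edgeR adjusted p under 0.05, 1 was higher in LW and 3 in MS. Among all 308 shared RNAs 44.2% and 42.5% were, so that most RNAs passed and these calls do not set the pathway apart. EEF2, the elongation factor that moves the ribosome along the message, had 1776 and 1893 reads in LW against 3916 and 4604 in MS, a log2 fold change of −1.38 (SE 0.03, edgeR adjusted p = 4.22e-06). EEF1A2, the muscle form of the factor that delivers tRNA, had 1825 and 1937 reads in LW against 3131 and 3524 in MS (log2 fold change −0.99, SE 0.04). The signal within 5 kb of these genes was in the reverse order of the reads. EEF2 had signals of 98824 and 74534 in LW against 48886 and 40057 in MS, and EEF1A2 had 158468 and 100176 in LW against 74666 and 46410 in MS. TPT1 was higher in MS by less (−0.17), NCL was higher in LW (0.22), and EEF1B2 did not pass (edgeR adjusted p = 0.158).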

How the data were processed

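Loop lists and RNA-DNA lists were used as deposited on Sscrofa11.1. The submitters' notes name Trim Galore 0.4.5, Bowtie2 2.2.5, SAMtools 1.9 and MACS2 2.1.2. Loops were called by the authors per library with FitHiChIP at 5 kb, and the deposited column read as loop q-values was under 0.01 throughout. The 2 loops with a value of 0 took the smallest positive one of their list. For GRID-seq the authors deposited read counts per RNA and a background-corrected signal per RNA and 1-kb bin. Neither kind of file has a header, so that these columns were told apart by their values and the study's methods. The RefSeq table gives no strand, so both gene ends counted. Members and lists were chosen with earlier results of these data known. Named members were those past a threshold, the 5 of smallest p per assay and direction among those whose breeds do not overlap, the 5 of highest mean, listed RNAs, RPL3, RPL3L and the P and SA proteins. Scores and signals were tested with limma 3.58.1 (quantile normalization, pseudocount 1, any gene above 0 in a library), and reads with edgeR 4.0.16 (TMM factors), a quasi-likelihood test with Benjamini-Hochberg adjustment (SE: log2 fold change over the root of F), in R 4.3.3. Calls used the study's thresholds. DESeq2 1.42.0 was an alternative. After quantile normalization a loop score of 0 stood at 0.60 in MS replicate 2 and at 0 elsewhere on the log2 scale. With 2 libraries a breed, a two-sided exact permutation test cannot go below p = 0.333. Scripts were tested on simulated data. No sequences were used here, and a few genes that the rule names are not reported here.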

Additional observations from a re-analysis of the deposited data

How the results depend on the processing

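Leaving out 1 library at a time gave 0 to 1 members past the loop threshold with LW higher and 0 to 3 with MS higher, and median loop log2 fold changes of members from −0.40 to 0.057. For RNA signal it gave 1 to 4 members with LW higher and 6 to 13 with MS higher. The lone library of a breed is then assumed to vary like the other breed's. In loops, a 5-kb window gave 1 of 76 members with MS higher (1.32%, against 2.30% of protein-coding genes). A deposited value of at most 0.001 gave 2 of 66 (3.03%, against 2.15%). A pseudocount of 0.1 gave 2 of 75 (2.67%, against 5.86%). The median loop log2 fold change was 0.18 without normalization. With a 5-kb window the loop log2 fold changes of RPL29 (−0.38) and RPS21 (−0.93) reversed. The share of members with a loop was 52.9% in LW and 54.7% in MS at 0.001, 52.9% and 45.9% when both libraries of the breed were required, and 70.0% in MS with a 5-kb window. Counted over any library, 66 of 85 members and 10815 of 19550 protein-coding genes had a loop at 0.001. With a 5-kb window these were 76 and 13214. Per 5-kb bin, the ratio of loops at members to the background, averaged over the libraries of a breed, was 1.45 in LW and 1.53 in MS.

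In RNA signal, members with LW higher were 5 of 78 without own RNAs (6.41%, against 6.82% of protein-coding genes). They were 1 of 48 without widespread RNAs (2.08%, against 9.30%) and 1 of 79 by number of RNA-bin pairs (1.27%, against 5.01%). Those with MS higher were 2 of 48 without widespread RNAs (4.17%, against 6.78%). Adjusted p under 0.05 was reached by 2 of 48 members without widespread RNAs (4.17%, against 7.71% of all genes) and 3 of 85 with no filter on low values (3.53%, against 2.83%). The median log2 fold change was −0.19 without widespread RNAs and −1.13 without paralogs and look-alikes. Without widespread RNAs the share of members with signal was 37.1% in LW and 35.9% in MS. RPL32 reversed without own RNAs (−3.66) and by number of pairs (−0.39). For reads, edgeR without scaling factors and with all listed reads as the library total called 2 of 9 members with MS higher. It called 84 of 308 RNAs in that direction.

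The shared replicate numbers are not stated to pair the libraries, and the deviations of equal numbers correlated at 0.35 for loops and −0.01 for RNA signal over genes. With a replicate block, RNA signal kept a count of 6 members with MS higher (7.59%, against 6.42% of protein-coding genes). With LW higher it gave 1 (1.27%, against 4.96%), in place of 3. The block changed no other count of members.

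With 2 libraries a breed, differences between breeds smaller than the gap between libraries of one breed could not be detected. The alternatives for reads were chosen after seeing the data. No cause of these changes was tested.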
